A study of Mus musculus with 21 samples.

Results

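The NRF2 antioxidant response genes described here are 10 named members of the NRF2 pathway, taken by gene symbol from the 35266 genes of the count table and followed across all 4 groups of the study. They are the factor gene Nfe2l2 and its inhibitor Keap1, the glutathione genes Gclc, Gclm and Slc7a11, the thioredoxin and peroxiredoxin genes Srxn1, Prdx1 and Txnrd1, and the enzyme genes Nqo1 and Hmox1. RNA-Seq profiles were made from 2 populations of fluorescent neurons of the arcuate nucleus, the hypothalamic region that controls appetite, each hand-sorted from 1 mouse per library. AGRP neurons, which drive feeding, came from NPY-hrGFP mice and POMC neurons, which restrain it, from Pomc-GFP mice, both on a C57BL/6J background. All mice were males of postnatal day 46 to 56, and all were put into a clean cage before the 24-hr period in which fed mice had chow freely and food-deprived (FD) mice had water only. There were 5 AGRP fed, 6 AGRP FD, 5 POMC fed and 5 POMC FD libraries, made from 44 to 214 sorted cells each. The AGRP population is defined by an Npy reporter and not by Agrp itself, and the cell type and the reporter line cannot be told apart in any AGRP against POMC comparison. The ages of the 2 populations overlapped only in part, with postnatal day 46 to 55 in AGRP and 51 to 56 in POMC mice.

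NRF2, encoded by Nfe2l2, is a transcription factor that is made continuously and destroyed almost as fast. KEAP1 holds it and hands it to the CUL3 ubiquitin ligase. When oxidants or electrophiles modify cysteines of KEAP1, NRF2 escapes, enters the nucleus, pairs with a small MAF protein and binds antioxidant response elements, from which BACH1 is displaced. Because this control acts mainly on the protein, the amount of Nfe2l2 or Keap1 transcript does not report the activity of the factor. Its classic targets make and recycle glutathione and thioredoxin, supply NADPH, and detoxify quinones and haem. In the brain the pathway is best known from astrocytes and is weak in mature neurons, and several of its targets, Srxn1 among them, also carry binding sequences for AP-1 factors, which are induced by neuronal activity.

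The promoters of 3 members are shown because the antioxidant response element is the sequence through which NRF2 acts on this gene group, and because Srxn1 and Gclm differed between fed and FD AGRP neurons while Prdx1, whose promoter holds the same kind of letters, did not pass the test. Each window runs 5′ to 3′ on the plus strand, which is the strand of all 3 genes, from 250 bases before to 50 bases after a transcript start annotated by RefSeq on GRCm38.p6. That start is the gene start of the count table for Srxn1 and Gclm, while for Prdx1 it is 116685599, which is 55 bases inside the gene as the count table places it, and distances are counted from the RefSeq start. The positions are chr2:152105274-152105573 for Srxn1, chr3:122245307-122245606 for Gclm and chr4:116685349-116685648 for Prdx1. Capitals mark every match, on either strand, to the letters TGACNNNGC, the core of the antioxidant response element, or to TGANTCAGC, a form that also contains the AP-1 letters TGANTCA.
Srxn1: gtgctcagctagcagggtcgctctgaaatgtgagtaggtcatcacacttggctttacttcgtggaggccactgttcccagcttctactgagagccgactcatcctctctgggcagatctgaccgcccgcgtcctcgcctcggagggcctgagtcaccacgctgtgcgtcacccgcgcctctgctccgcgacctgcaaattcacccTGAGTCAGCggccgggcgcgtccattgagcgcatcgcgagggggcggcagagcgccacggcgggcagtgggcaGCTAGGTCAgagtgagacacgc
Gclm: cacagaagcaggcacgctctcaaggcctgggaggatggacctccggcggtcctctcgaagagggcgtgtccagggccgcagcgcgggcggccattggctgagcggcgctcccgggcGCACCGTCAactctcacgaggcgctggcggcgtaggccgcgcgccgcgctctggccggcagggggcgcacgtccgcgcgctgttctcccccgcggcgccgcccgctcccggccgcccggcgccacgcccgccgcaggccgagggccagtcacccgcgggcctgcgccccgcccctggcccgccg
Prdx1: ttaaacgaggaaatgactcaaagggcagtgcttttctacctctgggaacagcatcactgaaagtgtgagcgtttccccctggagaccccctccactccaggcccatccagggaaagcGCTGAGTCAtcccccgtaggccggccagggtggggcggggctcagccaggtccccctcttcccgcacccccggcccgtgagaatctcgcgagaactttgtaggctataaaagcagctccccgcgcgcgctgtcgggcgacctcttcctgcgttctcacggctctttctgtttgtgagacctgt

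In the Srxn1 window, TGAGTCAGC began 45 bases before the start and a second match, to TGACNNNGC on the minus strand, lay just after it. The Gclm window held 1 match to TGACNNNGC, 134 bases before the start, and none to the AP-1-containing form. The Prdx1 match, 133 bases before the start, reads TGACTCAGC on the minus strand and therefore fits both forms. Of the 10 members, 8 had an entry in the promoter table, in 10 windows, with 3 for Txnrd1; Gclc and Hmox1 had none. Of those 10 windows, 5 held TGACNNNGC (1 each of Nfe2l2, Srxn1, Gclm, Prdx1 and Txnrd1), against 12.4% of all 32851 promoter windows of the same length. The form TGANTCAGC was held by 2 of the 10, those of Srxn1 and Prdx1, against 1.19% of all windows, and the AP-1 letters TGANTCA by the same 2 windows against 7.81%. The AP-1 letters also occur outside the capitals, 102 bases before the start in Srxn1 and 237 bases before it in Prdx1. The letters searched were chosen with the sequences in view, and a match describes letters in a window, not an occupied site.

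Each library held 9822298 to 37663979 reads counted on genes, with a median of 19189780. Values are given as normalized CPM, that is CPM after TMM scaling, which compare libraries, and as deposited TPM, which are per transcript length and compare genes. Of all genes, 16513 passed the filter on low counts (CPM above 1 in at least 3 libraries), all 10 members among them, and a gene was called changed when the q-value of edgeR's quasi-likelihood test, adjusted over all genes tested, was under 0.05. The populations matched their labels. Agrp and Npy together gave 12064 to 68921 TPM in AGRP libraries and 5.45 to 226 TPM in POMC libraries, and Pomc and Cartpt 8809 to 37160 TPM in POMC libraries and 114 to 227 TPM in AGRP libraries. The 18 glial, endothelial and tanycyte markers summed to 45.2 to 64.4 TPM in AGRP fed, 28.6 to 49.5 TPM in AGRP FD, 32.9 to 49.0 TPM in POMC fed and 35.0 to 69.8 TPM in POMC FD libraries. A sorted pool is a bulk sample, so fewer cells expressing a gene and less of its RNA per cell cannot be told apart.

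In AGRP neurons, food deprivation raised 3 of the 10 members and lowered none. Srxn1, encoding sulfiredoxin, rose 19.3-fold, Gclc, the catalytic subunit of the enzyme that makes the first peptide bond of glutathione, rose 2.43-fold, and Gclm, the regulatory subunit of the same enzyme, rose 1.78-fold. The other 7 members, including the factor Nfe2l2 and the classic targets Nqo1 and Hmox1, did not pass the test. Over all 16513 genes tested, 10.3% were called in this comparison, 969 higher and 731 lower in FD. The median log2 change was 0.43 over the 10 members and -0.02 over all genes. In POMC neurons none of the 10 members was called, where 0.375% of all genes were.

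**Figure D1:**
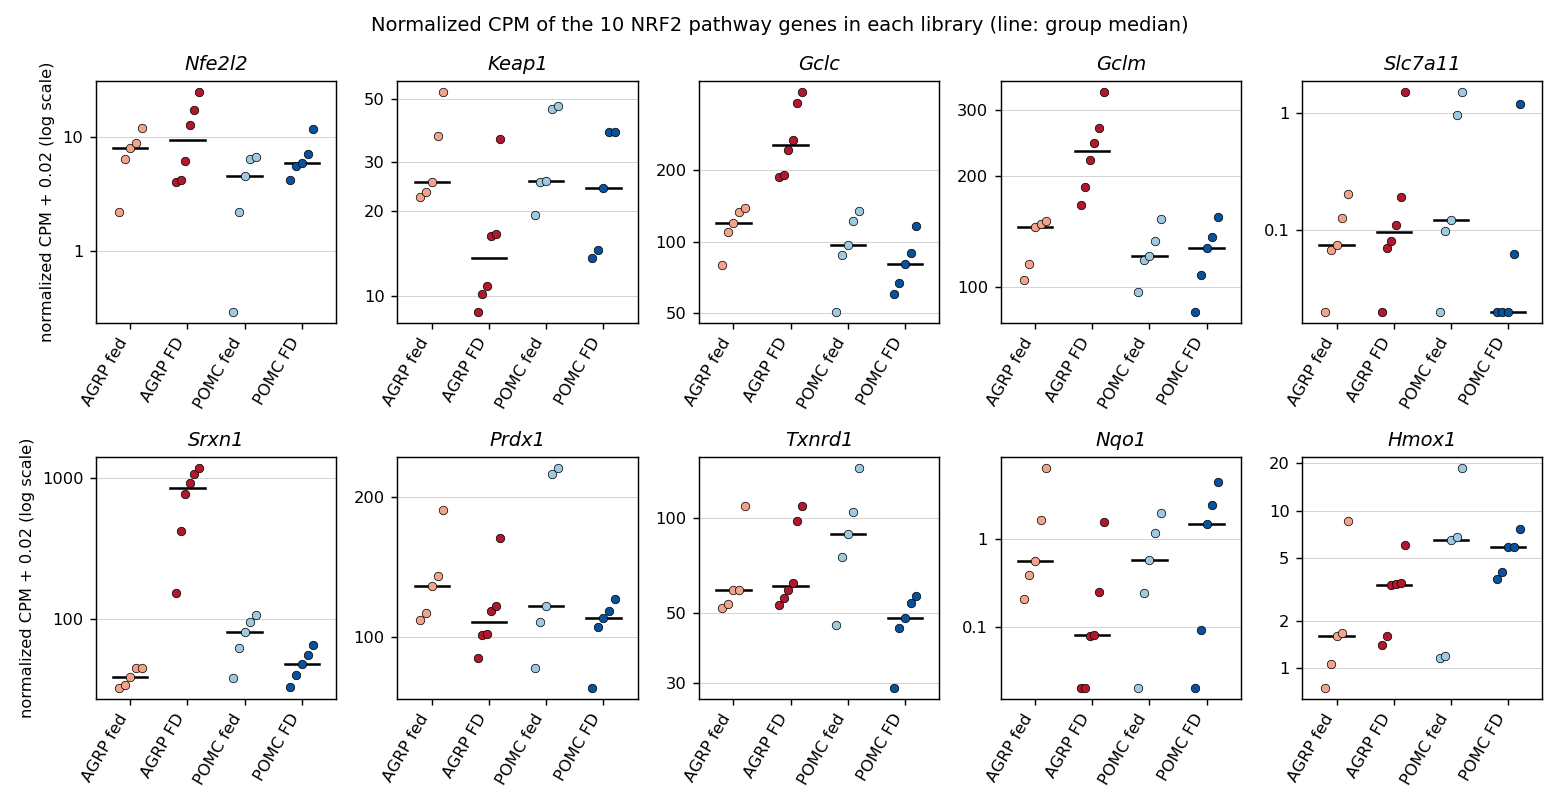
Normalized CPM (log axis, with 0.02 added so that zeros can be drawn) of each of the 10 members in every library, with a line at each group median. The 6 AGRP FD libraries lie above all other libraries for Srxn1, Gclc and Gclm, while for the other 7 members they overlap the AGRP fed libraries.

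Nfe2l2 lies on chromosome 2 (75675513 to 75704641, minus strand) and Keap1 on chromosome 9 (21229730 to 21239332, minus strand), positions here and below being those of the count table on mm10. Nfe2l2 was measured at 8.83, 2.20, 11.99, 8.02 and 6.48 normalized CPM in the 5 AGRP fed libraries, and at 4.01, 9.48 and 24.8 as the lowest, median and highest of the AGRP FD libraries. These ranges overlapped, and the log2 change was 0.62 with a 95% interval of -0.66 to 1.91 (edgeR, q = 0.626). In POMC neurons the range was 0.276 to 6.63 normalized CPM in fed and 4.22 to 11.8 in FD libraries, with a log2 change of 0.79 and an interval of -0.55 to 2.13 (edgeR, q = 0.694). A doubling of Nfe2l2 lies within both intervals, so the test does not decide whether a change of that size took place.

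Keap1 was measured at 25.4, 52.9, 36.8, 23.5 and 22.5 normalized CPM in AGRP fed libraries, and the lowest, median and highest AGRP FD libraries had 8.79, 13.6 and 36.1. Of the 6 AGRP FD libraries, 5 lay below every fed library and replicate 2 lay among them. The log2 change of -0.97 ± 0.38 (SE) had an interval of -1.74 to -0.20 but did not pass over all genes (edgeR, q = 0.108). The outcome of the test turned on that library: without AGRP FD replicate 2 the log2 change was -1.36 with q = 0.0158. Keap1 overlaps Gm16754 on the opposite strand and the counting ignored strand, so reads of the pair cannot be separated. In POMC neurons Keap1 ranged from 19.5 to 47.1 normalized CPM in fed and from 13.7 to 38.2 in FD libraries, a log2 change of -0.34 (edgeR, q = 0.809). Set against each other, the AGRP and POMC responses of Keap1 did not differ by the test (log2 -0.63, interval -1.74 to 0.49, edgeR, q = 0.585).

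Glutamate-cysteine ligase, the rate-limiting enzyme of glutathione synthesis, is a pair of subunits encoded by Gclc (chromosome 9, 77754535 to 77794485, plus strand) and Gclm (chromosome 3, 122245557 to 122269984, plus strand). Gclc had 139, 79.9, 109, 133 and 120.1 normalized CPM in the AGRP fed libraries. In AGRP FD libraries it had 187.5 at the lowest, 254 at the median and 424 at the highest. Every FD library lay above every fed library, and the log2 change was 1.28 ± 0.24 (SE; edgeR, q = 0.00058).

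Gclm showed 151, 146, 148, 104.5 and 115.5 normalized CPM in AGRP fed libraries and 167, 232.5 and 336 as the lowest, median and highest of AGRP FD. The groups did not overlap, though the lowest FD library stood only slightly above the highest fed one. The log2 change was 0.83 ± 0.19 (SE; edgeR, q = 0.00297). Gclm overlaps Gm17494 and Gm6061, 1 of them on the opposite strand, so part of its reads cannot be assigned with certainty.

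The POMC libraries did not show this shift. Gclc was at 50.7, 87.6, 122, 134 and 97.1 normalized CPM in POMC fed and at 60.4, 80.7, 66.9, 89.8 and 116 in POMC FD libraries. Gclm was at 133.5, 97.2, 121, 118 and 153 in POMC fed and at 85.8, 108, 128, 137 and 155 in POMC FD libraries. For both genes the POMC groups overlapped widely. The log2 change of Gclc was -0.25 with an interval of -0.75 to 0.25 (edgeR, q = 0.757), and that of Gclm -0.02 with an interval of -0.41 to 0.37 (edgeR, q = 0.984). Tested directly, the AGRP change exceeded the POMC change by 1.53 ± 0.34 (SE) on the log2 scale for Gclc (edgeR, q = 0.00547) and by 0.86 ± 0.27 for Gclm (edgeR, q = 0.0463). The Gclm difference between cell types was close to the threshold and its call was lost in 17 of the 21 fits that left out 1 library, with q from 0.0265 to 0.0949 over them, and held without AGRP FD replicate 1 or 6, POMC fed replicate 2 or POMC FD replicate 5.

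Slc7a11, on chromosome 3 (49892526 to 50443614, minus strand), encodes the cystine transporter that supplies cysteine for glutathione. It was at or under 3 counts in 17 of the 21 libraries and at 0 in 6. Its highest value was 1.49 normalized CPM, so no fold change is given, and 3 counts corresponded to 0.0912 to 0.295 CPM across libraries, which is a limit of counting only.

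Sulfiredoxin, the product of Srxn1 (chromosome 2, 152105524 to 152111376, plus strand), reactivates peroxiredoxins that peroxide has over-oxidised. Srxn1 was measured at 45.0, 32.8, 45.2, 39.2 and 34.2 normalized CPM in the AGRP fed libraries. In the AGRP FD libraries it was at 154, 1190, 779, 927, 1068 and 421, in the order of replicates 1 to 6. All 6 FD libraries lay above all fed libraries, and they also differed among themselves far more than the fed libraries did, replicate 1 being the lowest. The log2 change was 4.27 ± 0.37 (SE), with an interval of 3.52 to 5.01 (edgeR, q = 3.58e-09).

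The POMC libraries stood elsewhere. Srxn1 was at 95.4, 107, 38.3, 62.7 and 80.6 normalized CPM in POMC fed and at 65.2, 32.9, 48.5, 55.5 and 40.2 in POMC FD libraries. The groups overlapped, and the log2 change of -0.66 had an interval of -1.33 to 0.00 (edgeR, q = 0.415). The AGRP change exceeded the POMC change by 4.93 ± 0.48 (SE) on the log2 scale (edgeR, q = 4.94e-08). No annotated gene overlaps Srxn1.

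Peroxiredoxin 1, a substrate of sulfiredoxin and an abundant peroxide-reducing enzyme, is encoded by Prdx1 (chromosome 4, 116685544 to 116700822, plus strand). Prdx1 ranged from 109 to 187 normalized CPM in AGRP fed and from 90.0 to 163 in AGRP FD libraries. These ranges overlapped, and the log2 change of -0.23 had an interval of -0.69 to 0.23 (edgeR, q = 0.61). The ratio of Srxn1 to Prdx1, both per length in TPM, was 0.158 to 0.362 in AGRP fed and 1.22 to 10.7 in AGRP FD libraries.

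In POMC fed libraries Prdx1 was at 231, 224, 86.0, 116.5 and 108 normalized CPM, replicates 1 and 2 standing far above the rest, and in POMC FD libraries it ranged from 78.0 to 121. The log2 change was -0.54 with an interval of -1.02 to -0.06 and did not pass (edgeR, q = 0.339). Those same 2 fed libraries also held the 2 highest Srxn1 values of the group. Both received spike-in RNA in proportion to their number of sorted cells, a set to which no POMC FD library belongs. Both also came from mice of postnatal day 51, while POMC FD mice were of day 54 to 56.

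Txnrd1 (chromosome 10, 82859206 to 82897724, plus strand) encodes cytosolic thioredoxin reductase, which keeps thioredoxin reduced with electrons from NADPH. In AGRP neurons it ranged from 52.1 to 109 normalized CPM in fed and from 53.3 to 109 in FD libraries, a log2 change of 0.13 with an interval of -0.41 to 0.68 (edgeR, q = 0.834). In POMC neurons it was at 89.0, 145, 75.4, 45.8 and 105 in fed and at 45.0, 54.0, 56.6, 29.1 and 48.2 in FD libraries. Of the 5 fed libraries, 4 lay above every FD library and replicate 4 lay among them. The log2 change was -0.98 ± 0.28 (SE), which did not pass with edgeR (q = 0.108) and passed with DESeq2 (log2 -0.96, adjusted p = 0.0408) and without POMC fed replicate 4 (log2 -1.15, edgeR, q = 0.0496). The AGRP change exceeded the POMC change by 1.11 on the log2 scale, with an interval of 0.32 to 1.91, and did not pass (edgeR, q = 0.0828). That difference passed without AGRP fed replicate 3 (1.35, edgeR, q = 0.0345) or without POMC fed replicate 4 (1.28, edgeR, q = 0.0321). Gm38560, Gm47073 and Eid3 overlap Txnrd1.

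Nqo1 (chromosome 8, 107388225 to 107403206, minus strand), the quinone reductase often used as a marker of NRF2 activity in cultured cells, was low in all 4 groups. It was at or under 3 counts in 7 of the 21 libraries and at 0 in 4, and its group medians were 0.549, 0.0592, 0.565 and 1.47 normalized CPM in AGRP fed, AGRP FD, POMC fed and POMC FD. All 4 groups overlapped and no fold change is given.

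Hmox1 (chromosome 8, 75093591 to 75100596, plus strand) encodes inducible haem oxygenase, which breaks down haem. It ranged from 0.732 to 8.54 normalized CPM in AGRP fed and from 1.38 to 6.03 in AGRP FD libraries, with a log2 change of 0.23 and an interval of -1.29 to 1.76 (edgeR, q = 0.905). In POMC neurons it ranged from 1.14 to 18.7 in fed and from 3.64 to 7.66 in FD libraries, with a log2 change of -0.34 and an interval of -1.93 to 1.24 (edgeR, q = 0.919). A doubling lies within both intervals.

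**Figure D2:**
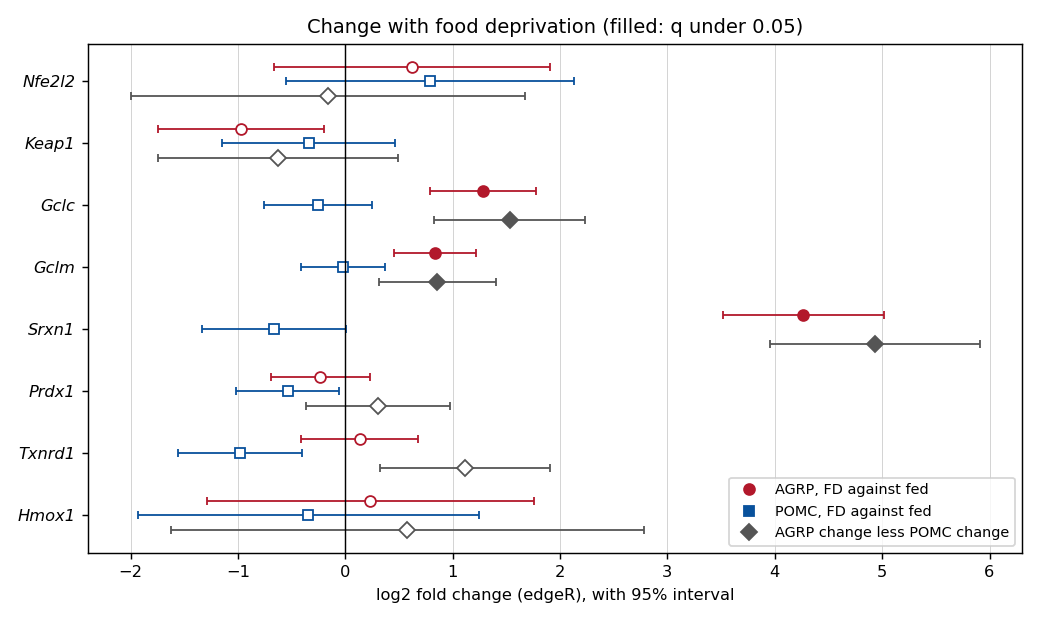
Log2 fold change with food deprivation (edgeR, bars: 95% interval) of the 8 members with enough counts, in AGRP neurons, in POMC neurons, and the difference between these changes, with filled symbols where q was under 0.05. Srxn1, Gclc and Gclm are filled in AGRP neurons and for the difference, at 4.27, 1.28 and 0.83 and at 4.93, 1.53 and 0.86, and no POMC symbol is filled.

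By count, food deprivation called 3 of 10 members in AGRP neurons and 0 of 10 in POMC neurons with edgeR. For POMC neurons 2 members, Prdx1 and Txnrd1, had an unadjusted p under 0.05, limma-voom called 0 and DESeq2 called 1. The test of the difference between the 2 responses called 3 of 10 members, all in the direction of a larger change in AGRP neurons, where 6.71% of all genes were called. For Nfe2l2 (log2 -0.16, q = 0.953), Prdx1 (0.30, q = 0.669) and Hmox1 (0.58, q = 0.827) the difference between responses did not pass (edgeR). The median log2 change of the 10 members was -0.34 in POMC neurons, against -0.02 over all genes, and the median of the differences 0.72, against 0.01 over all genes.

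The members called in AGRP neurons were also compared within 3 sets of libraries, formed here from the spike-in volumes in the labels: a volume of 1 µl, a volume of 10 µl, and volumes in proportion to the number of sorted cells. AGRP FD replicate 2 received 1 µl for 50 cells, which fits both the first and the last set, and was placed in the last. In AGRP neurons the last set held the mice of postnatal day 46 and 47, and the other sets those of day 51 and 55. Set and age therefore cannot be told apart between the last set and the others. For Srxn1 the mean log2 difference between FD and fed was 4.55 (1 FD against 1 fed library), 4.00 (2 against 2) and 3.82 (3 against 2) in the 3 sets, in that order. For Gclc the same differences were 1.61, 1.18 and 1.09. For Gclm they were 0.54, 0.46 and 1.22, all in the direction of the pooled comparison. With every library scaled to its spike-in RNA, Srxn1 kept its call (the highest q over the 10 alternative fits was 0.00286) while Gclc (log2 1.32, edgeR, q = 1) and Gclm (log2 1.07, edgeR, q = 1) lost theirs. Each of these log2 changes is taken relative to the median gene, and each q-value belongs to the change before that. This scaling called 97 of all 16513 genes in AGRP neurons, against 1700 with TMM. Its factors departed from those of TMM with an SD of 1.21 on the log2 scale.

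In POMC neurons 1 set alone held both conditions, 3 libraries each. There the mean log2 difference was -0.76 for Gclc, with 60.4 to 80.7 normalized CPM in FD and 97.1 to 134 in fed libraries, a separation that the pooled comparison did not show. For Srxn1 it was -0.30, for Gclm -0.30, for Txnrd1 -0.46 and for Prdx1 -0.05. The remaining POMC libraries were 2 fed in a set with no FD library and 2 FD in a set with no fed library, where set, age and feeding cannot be told apart.

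Of the 12 glial, endothelial and tanycyte markers that could be tested, 1 was called between FD and fed AGRP libraries, the astrocyte marker Aldh1l1. Its deposited level was 0.0258 TPM on average in AGRP fed and 1.69 in AGRP FD libraries. The other astrocyte markers were not called and went either way. Their log2 changes were -0.50 for Gfap, -0.38 for Aqp4 and 0.30 for Slc1a3 (edgeR, q from 0.897 to 0.931). The summed levels of all 18 markers, given above, overlapped between these groups and were not tested. Tmem119 (microglia) and Cldn5 (endothelium) were at 0 in every AGRP fed and POMC library and had at most 1 count in any AGRP FD library, and Cx3cr1 (microglia) was at 0 in all 6 AGRP FD libraries. Other markers of these cell types were detected and went either way between FD and fed AGRP libraries. Their log2 changes were 1.83 for Csf1r and -1.92 for Aif1 (microglia), and 1.12 for Flt1, 0.29 for Pecam1 and -1.38 for Esam (endothelium). Csf1r averaged 0.632 normalized CPM in AGRP fed and 2.255 in AGRP FD libraries. The part of other cell types in the results was not tested.

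Between AGRP and POMC neurons of fed mice, none of the 10 members was called, where 7.57% of all genes were. With edgeR 1 member had an unadjusted p under 0.05, and limma-voom and DESeq2 called 0. That member was Srxn1, at 32.8 to 45.2 normalized CPM in AGRP fed and 38.3 to 107 in POMC fed libraries. Of the 5 POMC fed libraries, 4 were above every AGRP fed library, and the log2 difference of -0.97 had an interval of -1.64 to -0.30 (edgeR, q = 0.0709). It passed when the 2 groups were fitted alone (q = 0.0211), with no filter on counts (q = 0.0275) and without POMC fed replicate 3 (log2 -1.14, edgeR, q = 0.0291). The glutathione genes were near each other in the 2 fed populations, with log2 differences of 0.24 for Gclc (interval -0.26 to 0.74) and 0.09 for Gclm (interval -0.30 to 0.48). The log2 differences of Nfe2l2 (0.91), Keap1 (-0.02), Prdx1 (-0.19), Txnrd1 (-0.46) and Hmox1 (-1.34) did not pass either, with edgeR q from 0.389 for Hmox1 to 0.989 for Keap1. Slc7a11 and Nqo1 were too low for a fold in this or any other comparison and were called in none.

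Between AGRP and POMC neurons of FD mice, 3 of the 10 members were called, all higher in AGRP neurons, where 18.6% of all genes were called. This comparison shares its AGRP FD libraries with the comparison of FD and fed AGRP neurons and is not independent of it. Srxn1 was 15.6-fold higher (log2 3.97 ± 0.36 SE, edgeR, q = 1.21e-09), Gclc 3.42-fold (log2 1.77 ± 0.25, edgeR, q = 2.72e-06) and Gclm 1.93-fold (log2 0.95 ± 0.19, edgeR, q = 0.000335), and for none of them did the FD groups overlap. Keap1 was called only without AGRP FD replicate 2 (log2 -1.04, edgeR, q = 0.0454; with it -0.65, q = 0.261). Txnrd1 differed by a log2 of 0.65 with an interval of 0.10 to 1.20 and did not pass (edgeR, q = 0.0951). The log2 differences of Nfe2l2 (0.74, q = 0.47), Prdx1 (0.12, q = 0.784) and Hmox1 (-0.76, q = 0.541) did not pass (edgeR). Over the 10 members the median log2 difference was 0.52, and over all genes it was close to 0.

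Per transcript length, the members spanned a broad range of levels. In AGRP fed libraries Prdx1 was the highest at 184 ± 34.2 TPM (SD, n = 5), above every library's value of the next gene. Gclc (120 ± 28.0 TPM), Gclm (96.4 ± 16.3), Txnrd1 (68.7 ± 25.9) and Srxn1 (49.3 ± 9.09) followed, each overlapping its neighbour in this order. Keap1 (25.0 ± 8.93) and Nfe2l2 (10.8 ± 5.32) did not overlap each other, and Hmox1 (5.98), Nqo1 (4.26) and Slc7a11 (0.0278) were the lowest.

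In AGRP FD libraries the order was led by Srxn1 at 770 ± 381 TPM (SD, n = 6), which rose from the fifth place to the first. Gclc (243 ± 87.0 TPM), Gclm (143 ± 29.8) and Prdx1 (132 ± 23.0) came next, and each of these 4 overlapped its neighbour. In both POMC groups Prdx1 led, at 180 ± 62.7 TPM in fed and 139 ± 22.8 in FD libraries (SD, n = 5 each), and Srxn1 was at 82.7 ± 24.4 and 57.7 ± 14.7 TPM. The 2 subunits of glutamate-cysteine ligase stayed at comparable levels, with a ratio of Gclc to Gclm in TPM of 0.776 to 1.80 in AGRP fed and 1.12 to 2.73 in AGRP FD libraries, which overlap.

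**Figure D3:**
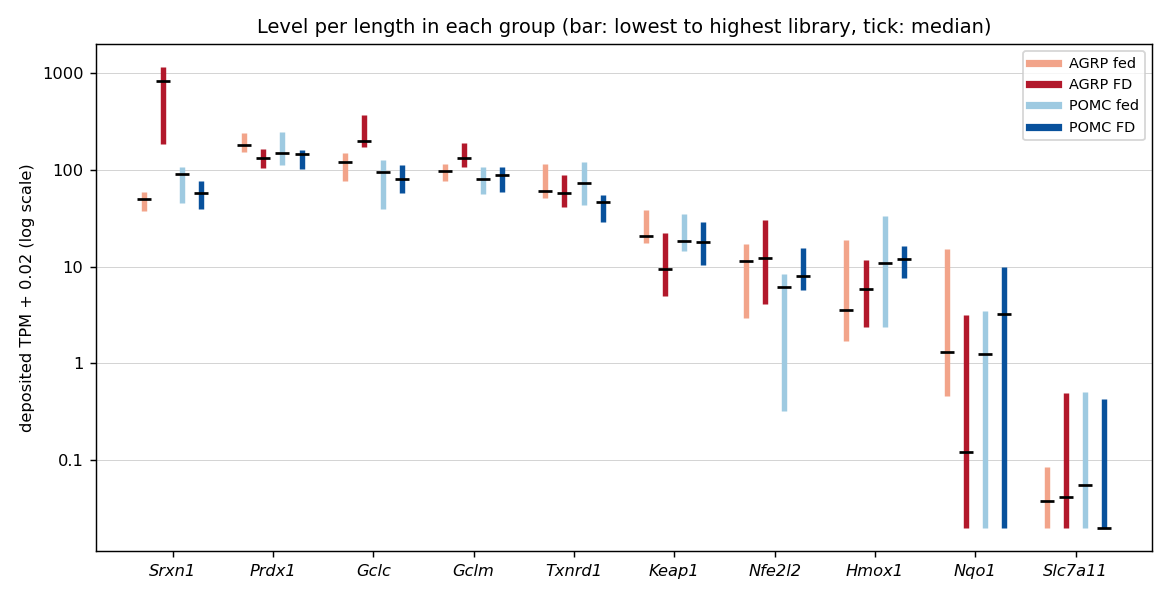
Deposited TPM (log axis, with 0.02 added so that zeros can be drawn) of each member in the 4 groups, with bars from the lowest to the highest library and a tick at the median. The AGRP FD bar of Srxn1, 184 to 1159 TPM, lies above the other 3 groups, while Nqo1 and Slc7a11 reach 0 in 3 or all of the groups.

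Srxn1, Gclc and Gclm were next set against each other library by library. Over all 21 libraries the Pearson correlation of their log2 normalized CPM was 0.79 for Gclc and Srxn1, 0.82 for Gclm and Srxn1 and 0.79 for Gclc and Gclm, but the AGRP FD libraries stand apart from the rest and these values are read only with those within groups. Within groups, after each group's mean was taken away, the correlations were 0.17, 0.35 and 0.28. They are given as descriptions, over 21 libraries that share their depth and scaling across genes, and are 3 of 45 pairs computed. The AGRP FD library with the lowest Srxn1, replicate 1, also had the second lowest Gclc and Gclm of that group.

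**Figure D4:**
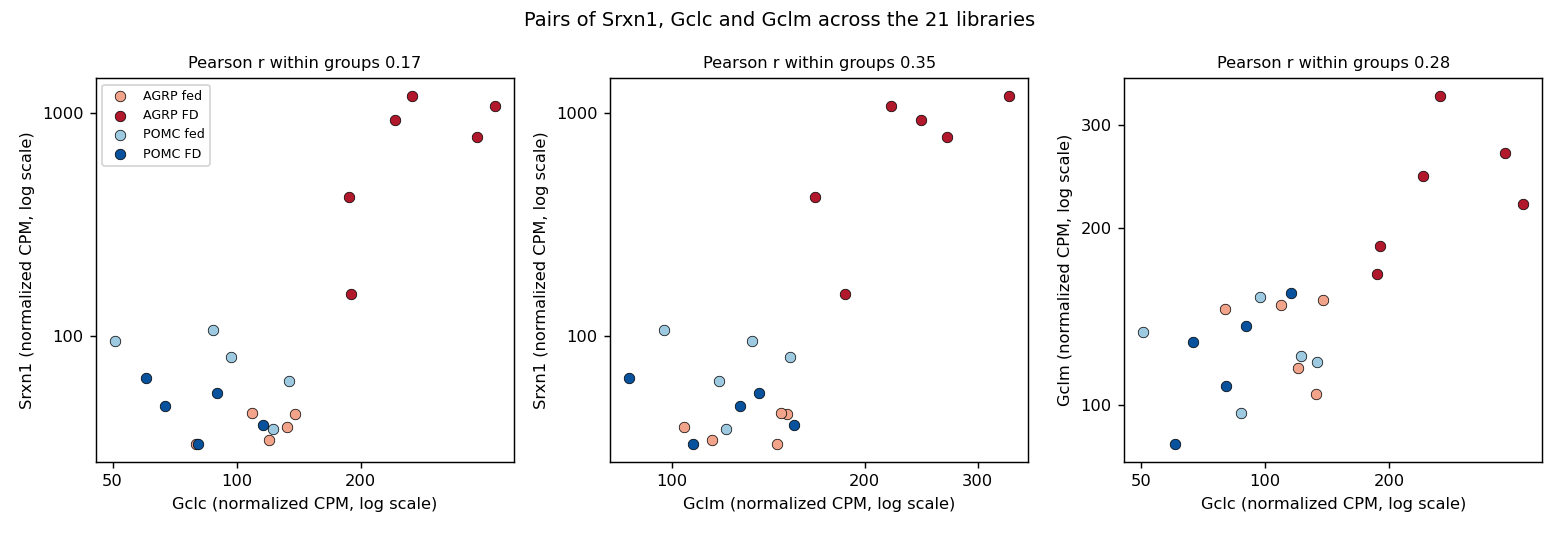
Normalized CPM (log axes) of Srxn1, Gclc and Gclm against each other, with 1 point for each of the 21 libraries coloured by group. The 6 AGRP FD points lie apart at the upper right of each panel, and the within-group correlations are 0.17, 0.35 and 0.28.

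Among the 8199 tested genes with a mean above 20 CPM in at least 1 group, those whose log2 CPM followed each called member most closely over the 21 libraries were named. For Srxn1 they were Scg2 (Pearson r = 0.942), Gm27031 (0.940) and Asap1 (0.938). For Gclc they were Cers6 (0.952), Efnb2 (0.930) and Copb2 (0.928). For Gclm they were Sec31a (0.891), Snx1 (0.887) and Gatsl2 (0.886). For these genes too the AGRP FD libraries stand apart from the rest, and all genes share the depth of each library.

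The wider pathway was followed through 48 further genes in 6 roles, of which 44 passed the filter on counts (Mgst1, Slc40a1, Aox1 and Osgin1 did not). In AGRP neurons 4 of the 44 were called with food deprivation, 2 higher and 2 lower, which is 9.09% against 10.3% of all genes. The median log2 change of the list was 0.09, and 10 of its genes had an unadjusted p under 0.05. In POMC neurons edgeR called 0 of 44, with 6 at an unadjusted p under 0.05, and limma-voom and DESeq2 also called 0.

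Of the 10 partners and regulators of NRF2, 1 was called in AGRP neurons. Maff, a small MAF protein with which NRF2 forms its DNA-binding dimer, rose from 3.08 ± 1.74 normalized CPM in fed to 18.6 ± 5.92 in FD libraries (SD, n = 5 and 6), with no overlap (log2 2.59 ± 0.69 SE, 6.02-fold, edgeR, q = 0.013). Its change exceeded that in POMC neurons by 3.41 on the log2 scale (edgeR, q = 0.0254). The Maff call was lost when the number of sorted cells entered the fit (log2 2.09, edgeR, q = 0.0563). The repressor Bach1, named after its values were seen, came next and did not pass (log2 1.9, edgeR, q = 0.0722). It was at 9.38 ± 2.18 normalized CPM in fed and 35.1 ± 39.1 in FD libraries, with overlap. Bach1 passed as higher in FD with DESeq2 (adjusted p = 0.0274), no count filter (q = 0.0494) and the 2 groups alone (q = 0.0216). It did not pass with limma-voom, RLE or spike-in scaling, the blocks or sorted cells.

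Of the 9 tested genes of glutathione synthesis, recycling and use, none was called with edgeR, 2 had an unadjusted p under 0.05, and limma-voom called 1 and DESeq2 2. The gene nearest the threshold, named after its values were seen, was the glutathione peroxidase Gpx1, at 37.5 ± 6.41 normalized CPM in fed and 20.8 ± 8.18 in FD libraries (log2 -0.85, edgeR, q = 0.051), which passed as lower in FD with RLE scaling (q = 0.0383), with no count filter (q = 0.0427), with the replicate block (q = 0.0276), with the spike-in set block (q = 0.00795) and with DESeq2 (adjusted p = 0.0197). Slc3a2, the partner chain of the cystine transporter, was next (log2 0.82, edgeR, q = 0.0536) and passed as higher in FD with limma-voom (adjusted p = 0.0274), with DESeq2 (adjusted p = 0.0303) and with the 2 groups fitted alone (q = 0.0251). Of the 8 genes of the thioredoxin and peroxiredoxin system, 1 was called. Prdx2, a cytosolic peroxiredoxin abundant in neurons, rose from 139 ± 31.2 to 262.5 ± 65.6 normalized CPM (log2 0.92, edgeR, q = 0.000518), with overlap between the groups. Prdx2 overlaps Rnaseh2a and Junb on the opposite strand, so its reads are not certain to be its own. Its change exceeded that in POMC neurons by 0.98 on the log2 scale (edgeR, q = 0.0126). Txn1, the cytosolic thioredoxin, had a log2 change of 0.63 in AGRP neurons that did not pass (edgeR, q = 0.0825) and that passed with limma-voom (adjusted p = 0.0366), with the spike-in set block (q = 0.0328), with the age block (q = 0.00366) and without AGRP fed replicate 3 (q = 0.0165) or AGRP FD replicate 1 (q = 0.0497). Its change exceeded that in POMC neurons by 1.39 on the log2 scale (edgeR, q = 0.01), a result that was picked after its values were seen and that was lost with spike-in scaling (q = 0.383).

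Of the 6 genes of NADPH supply, 1 was called. Idh1, the cytosolic isocitrate dehydrogenase, which makes NADPH, fell from 66.7 to 34.9 normalized CPM (log2 -0.94, edgeR, q = 0.00524). Of the 6 genes of superoxide and peroxide removal and detoxification, 1 was called. Sod2, the mitochondrial superoxide dismutase, fell from 110.6 to 59.5 normalized CPM (log2 -0.89, edgeR, q = 0.0223), a call that was lost in 4 of the 11 fits that left out an AGRP library (fed replicates 2 and 5, FD replicates 3 and 5). The Sod2 call was also lost when the number of sorted cells entered the fit (log2 -0.79, edgeR, q = 0.0796). Among the 5 genes of haem and iron handling, edgeR called 0 with 0 at an unadjusted p under 0.05, and limma-voom and DESeq2 called 0. With scaling to the spike-in RNA none of the 44 genes was called in AGRP neurons, where 97 of all 16513 genes were, against 1700 with TMM.

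**Figure D5:**
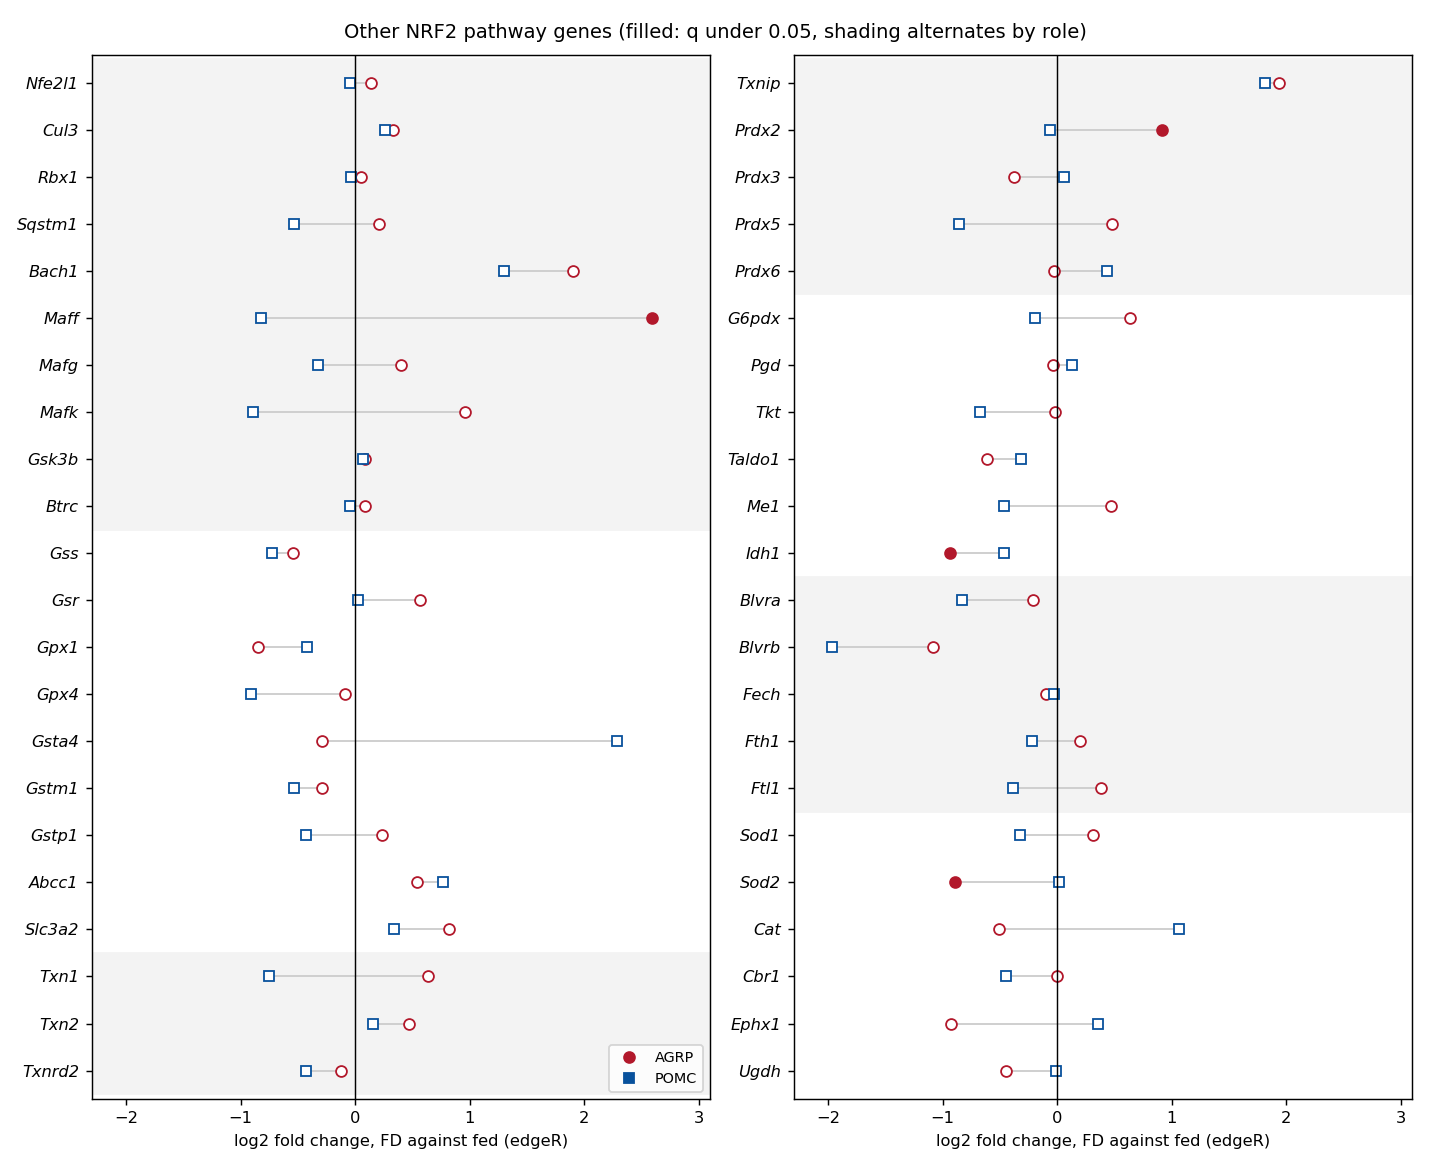
Log2 fold change with food deprivation (edgeR) of the 44 further pathway genes in AGRP neurons (circles) and POMC neurons (squares), shaded by role, with filled symbols where q was under 0.05. Maff at 2.59 and Prdx2 at 0.92 are filled to the right of 0, Idh1 at -0.94 and Sod2 at -0.89 to the left, and no POMC symbol is filled.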

How the data were processed

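RNA-Seq was run on 21 pools of hand-sorted neurons, 1 mouse each. Per the labels and the study's methods, the authors trimmed reads with cutadapt 1.7.1, removed unwanted reads with Bowtie2 2.1.0, aligned to mm10 with STAR 2.4.0i and counted reads per gene with HTSeq 0.6.1p1. The deposited files hold raw read counts per gene and TPM per gene, as the authors computed them; uniquely mapped reads were counted without regard to strand. The 92 spike-in rows and 5 summary rows were kept out of library sizes, and reads assigned to no gene were 25.5 to 53.1% of each library. No per-sample column was left unused (0).

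Genes with CPM above 1 in at least 3 libraries were tested on the counts with edgeR 4.0.16 (quasi-likelihood, TMM, factors 0.857 to 1.11) in R 4.3.3, with all 21 libraries and 4 groups in 1 fit and Benjamini-Hochberg adjustment over all 16513 genes (q). The contrasts were FD against fed in each cell type, AGRP against POMC in each feeding state, and the difference between the responses. The filter, samples and normalization follow the study, whose test, limma-voom (limma 3.58.1), was run as an alternative, as were DESeq2 1.42.0, RLE scaling, spike-in scaling, no count filter, the 2 groups alone, blocks for replicate number, spike-in set (fixed volumes of 1 or 10 µl, or volumes in proportion to sorted cells) and age, sorted cell number as a covariate, and leaving out each library. The procedure was tested on simulated data, in which only large changes in well-expressed genes were planted. Smaller changes and genes of low counts were not covered by it. Correlations used log2 of CPM plus 0.5.

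Every member is named in every contrast; of the further genes, those called with food deprivation, and for each called member the 3 genes most like it. The members and lists were chosen with earlier results of these data known. A value at or under 3 counts is taken as near the limit of counting. Gene positions are those of the deposited table, and overlaps were read from a later mm10 gene annotation than the one the authors used. Promoters were searched with Python 3.11.15.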

Additional observations from a re-analysis of the deposited data

Results flagged for a closer look

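In 8 of 40 groups of libraries examined gene by gene, 1 library lay far from the others of its group. Chance alone gives about 1 such group in 20 if values are normally distributed. That was not tested and is doubtful for genes of low counts. Keap1 in AGRP FD replicate 2 was at 36.1 normalized CPM with the next library at 16.6. Prdx1 in AGRP FD replicate 4 was at 163 with the next at 117, and Txnrd1 in AGRP fed replicate 3 was at 109 with the next at 59.2. The others were genes of low counts. Slc7a11 was at 1.49 in AGRP FD replicate 6 and at 1.18 in POMC FD replicate 4, from 20 and 12 counts, Nqo1 at 6.64 in AGRP fed replicate 3 and at 1.56 in AGRP FD replicate 6, from 109 and 21 counts, and Hmox1 at 8.54 in AGRP fed replicate 4, from 180 counts.

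The response to food deprivation differed between the 2 cell types, by a test of the difference itself, for Srxn1 (AGRP change less POMC change, log2 4.93, edgeR, q = 4.94e-08), Gclc (1.53, edgeR, q = 0.00547) and Gclm (0.858, edgeR, q = 0.0463).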

How the results depend on the processing

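Of 735 values of 75 gene results recomputed under 10 alternatives, 690 kept their side of the threshold, 28 lost a call and 17 gained one, and none that was called reversed; 18 values that passed in neither fit changed sign. Spike-in scaling left 1 member called with food deprivation in AGRP neurons and 1 in the difference between cell types (Srxn1 each time). It left 0, 0, 1 and 0 further pathway genes in the AGRP response, AGRP against POMC fed, AGRP against POMC FD and the difference. Of all 16513 genes it called 97, 297, 1117 and 119 in the same order. It moved the median of all genes by -1.11 (log2) in the POMC response, by 1.10 in AGRP against POMC FD and by 1.04 in the difference. Its q-values belong to the changes before this median was taken off. DESeq2 called 8 further genes in the AGRP response and 1 member in the POMC response, and the sorted cell covariate 2 further genes in the AGRP response. For AGRP against POMC fed, no count filter and the 2 groups alone each called 1 member, and the age block called 4 further genes against 9. The Gclm difference between cell types lost its call with RLE scaling (q = 0.0596), no count filter (q = 0.0538), the age block (q = 0.051) and sorted cells (q = 0.0901). The cause was not tested for any of these.

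Leaving out 1 library gave 3 to 4 members and 3 to 7 further genes in the AGRP response (7 without AGRP FD replicate 6), 0 to 1 members in the POMC response (1 without POMC fed replicate 4), 0 to 1 members (1 without POMC fed replicate 3) and 3 to 10 further genes (3 without AGRP fed replicate 5 or POMC fed replicate 2, 4 without POMC fed replicate 1, 5 without AGRP fed replicate 1 or 4) in AGRP against POMC fed, 5 to 10 further genes in AGRP against POMC FD (5 without AGRP FD replicate 2 or POMC FD replicate 2), and 2 to 3 members and 2 to 5 further genes in the difference (5 without POMC fed replicate 3).

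Replicate numbers did not pair the libraries, which came from different mice: deviations of same-numbered libraries correlated between -0.183 and 0.118 over 20 pairs, and 2 libraries correlated best with their own number. A replicate block gave 4 members in the AGRP response, adding Keap1 (log2 -1.03, q = 0.0418). For Slc7a11, Nqo1 and Hmox1 the counts limit what can be detected.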

Other observations

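Of the further pathway genes, 9 of 44 were called between AGRP and POMC neurons of fed mice (2 higher and 7 lower in AGRP, 20.5% against 7.57% of all genes). The examples here were chosen after their values were seen. Gpx1, a glutathione peroxidase, was at 37.5 ± 6.41 normalized CPM in AGRP fed and 140.6 ± 75.1 in POMC fed libraries (SD, n = 5 each), without overlap (log2 -1.91, edgeR, q = 4.38e-05). Bach1, a repressor that competes with NRF2, was at 9.38 ± 2.18 in AGRP fed and 1.71 ± 1.78 in POMC fed libraries, without overlap (log2 2.47, edgeR, q = 0.03), a call that was lost with the 2 groups fitted alone, with the age block and with spike-in scaling. Spike-in scaling called none of the 44 genes in this comparison, so the Gpx1 call was lost with it as well. In FD mice 8 of 44 were called (5 higher and 3 lower in AGRP, 18.2% against 18.6% of all genes), with Gpx1 at a log2 difference of -2.34 (edgeR, q = 3.63e-07) and Bach1 at 3.07 (edgeR, q = 0.00224). With spike-in scaling Bach1 kept its call in FD mice (edgeR, q = 0.000156) and Gpx1 lost its call.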
